A study of Mus musculus with 4 samples.

Results

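The genes described are 9 genes of secreted matrix glycoproteins and perivascular proteoglycans in primary liver sinusoidal endothelial cells (LSECs): *Nid1*, *Nid2*, *Hspg2*, *Agrn*, *Sparc*, *Fn1*, *Tnc*, *Thbs1* and *Postn*. They were named individually by what their proteins do, with earlier results of these data known, and are 9 of the 18373 genes in the deposited table. All 9 were among the 13628 genes with enough counts for a test. The LSECs came from Balb/c mice aged 8 weeks and were taken from perfused livers over a density gradient and with anti-CD146 magnetic beads. The 4 RNA-seq libraries were made from these cells after 24 h of culture and 48 h of transfection (day 3), and consist of 2 libraries given the control siRNA (NC) and 2 libraries labelled si*Airn*, given siRNA against the long noncoding RNA *Airn*. The labels of both si*Airn* libraries name si*Airn*1, whereas the methods speak of separate si*Airn*s, so the spread between these libraries may include a difference between siRNAs. All 4 libraries share the isolation, the plastic coated with collagen and the transfection, so no library shows freshly isolated cells. The labels call the libraries biological replicates 1 and 2 of each group, and do not say whether the replicates came from separate mice, so the p-values measure the spread between these libraries only.

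Counts of *Airn*, the targeted transcript, went against the label of the si*Airn* libraries. They were 7 and 3 for the NC replicates and 11 and 9 for the si*Airn* replicates, or 0.287 ± 0.172 and 0.559 ± 0.0705 CPM (counts scaled to library size; SD, n = 2). The 95% interval of their ratio of 1.97, si*Airn* over NC, ran from 0.880 to 4.71 by exact binomial limits, which cover counting error only. Leaving out NC replicate 1 moved the ratio to 3.37, and leaving out NC replicate 2 moved it to 1.37. The paper describes si*Airn*-1 and si*Airn*-2 as efficient at knockdown. With *Airn* counts this low, every direction below follows the labels.

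Endothelial cells and their neighbours rest on a basement membrane, in which nidogens (*Nid1*, *Nid2*) link the laminin network to collagen IV, and the large heparan sulfate proteoglycans perlecan (*Hspg2*) and agrin (*Agrn*) anchor growth factors and cell receptors. The matricellular proteins SPARC, tenascin C (*Tnc*), thrombospondin 1 (*Thbs1*) and periostin (*Postn*) add little to the framework and instead alter how cells bind to it, and fibronectin (*Fn1*) forms fibrils to which integrins attach. The liver sinusoid normally has only a sparse and discontinuous basement membrane, and the build-up of matrix in the space beneath LSECs is a known feature of fibrosis and capillarization.

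Promoter sequences are shown for 5 of the genes, to describe starts of genes that rose, fell or did neither. For *Tnc*, *Postn* and *Agrn*, the start shown is the one that carries the matches described below. No difference between these groups of genes was tested. They come from RefSeq (GRCm38.p6), run from 250 bases before to 50 bases after an annotated start, and are written 5′ to 3′ on the strand of the gene. The RefSeq table used here had windows for 6 of the 9 genes and not for *Nid2*, *Fn1* or *Thbs1*. Capitals mark every match, on either strand, to 4 motifs: the TATA-like TATANA, the GC box GGGCGG, the AP-1 site TGANTCA and the TEAD site CATTCC.
Tnc, chr4:64046887-64047186, minus strand: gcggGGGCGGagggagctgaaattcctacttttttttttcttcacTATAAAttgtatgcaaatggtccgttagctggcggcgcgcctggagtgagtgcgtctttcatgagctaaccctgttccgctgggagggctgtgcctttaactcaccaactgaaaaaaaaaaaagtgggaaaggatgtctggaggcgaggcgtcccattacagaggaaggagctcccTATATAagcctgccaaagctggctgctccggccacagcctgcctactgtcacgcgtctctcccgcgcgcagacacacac
Postn, chr3:54360857-54361156, plus strand: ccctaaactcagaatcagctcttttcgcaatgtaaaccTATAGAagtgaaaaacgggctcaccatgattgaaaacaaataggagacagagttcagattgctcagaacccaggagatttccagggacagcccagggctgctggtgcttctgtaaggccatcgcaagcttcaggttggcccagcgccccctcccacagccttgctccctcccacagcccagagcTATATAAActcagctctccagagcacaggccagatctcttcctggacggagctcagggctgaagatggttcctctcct
Sparc, chr11:55420031-55420330, minus strand: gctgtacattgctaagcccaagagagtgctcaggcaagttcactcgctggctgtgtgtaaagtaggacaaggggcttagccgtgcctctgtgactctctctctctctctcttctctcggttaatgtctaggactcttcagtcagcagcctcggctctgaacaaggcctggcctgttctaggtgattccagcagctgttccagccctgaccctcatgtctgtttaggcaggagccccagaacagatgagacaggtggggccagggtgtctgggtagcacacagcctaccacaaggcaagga
Hspg2, chr4:137468553-137468852, plus strand: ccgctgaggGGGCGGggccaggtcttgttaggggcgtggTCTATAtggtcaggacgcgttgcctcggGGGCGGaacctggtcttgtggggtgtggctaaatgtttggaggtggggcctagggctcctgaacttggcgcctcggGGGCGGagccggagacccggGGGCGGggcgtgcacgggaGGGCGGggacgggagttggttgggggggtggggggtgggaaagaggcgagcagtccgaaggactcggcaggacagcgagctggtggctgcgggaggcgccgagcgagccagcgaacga
Agrn, chr4:156197439-156197738, minus strand: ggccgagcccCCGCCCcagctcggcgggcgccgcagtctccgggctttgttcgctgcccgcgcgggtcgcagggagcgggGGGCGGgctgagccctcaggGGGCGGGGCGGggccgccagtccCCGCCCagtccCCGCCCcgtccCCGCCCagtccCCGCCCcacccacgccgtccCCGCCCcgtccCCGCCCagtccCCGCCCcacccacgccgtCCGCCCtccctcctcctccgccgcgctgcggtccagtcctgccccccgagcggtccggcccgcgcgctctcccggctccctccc

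The windows of *Tnc* and *Postn*, both higher in the libraries labelled si*Airn*, each have a TATA-like match close to the start shown. The match of *Tnc* begins at base -29, and *Postn* has overlapping matches at -28 and -26. At the other RefSeq start of each gene this does not hold, since the TATANA match of *Tnc* begins at -126 there and *Postn* has none. Of 32851 RefSeq mouse promoter windows, 3.53% have a TATANA match that begins between bases -35 and -20, and 24.7% have a match anywhere. These shares are per window, whereas the starts of *Tnc* and *Postn* were chosen for their match. They therefore do not show whether the matches are unusual. The windows of *Hspg2* and *Agrn*, whose test was not passed in either direction, hold 5 and 12 GC boxes at the starts shown. The other start of *Agrn* has 2 GC boxes and *Nid1*, also not called, has 1. At least 5, the count of *Hspg2*, were found in 2.71% of all windows, and at least 1 in 35.7%. As this limit is the count of *Hspg2* itself and the start of *Agrn* was chosen for its matches, the share tests neither gene. The window of *Sparc*, the gene that fell, held none of the 4 motifs at this start. No window of the 6 genes held the AP-1 letters, which 7.81% of all windows hold. The TEAD letters, present in 14.7% of all windows, were found once, in *Nid1*. A match is a run of letters and no evidence of a bound factor, and counts per gene do not show which start these cells used.

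In NC, the levels of the 9 genes per unit of length spanned a wide range. *Sparc* stood at 1877 and 1803 FPKM (fragments scaled to transcript length and library size, as deposited) in NC replicates 1 and 2, which ranked it 20th by mean among the 18373 genes. *Tnc* followed at 283 and 306 FPKM, *Thbs1* at 152 and 165, and *Nid1* at 110.8 and 109.1. These 4 genes did not overlap with their neighbours in the order in NC.

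*Postn* came next at 35.2 and 35.9 FPKM in NC. *Hspg2* had 34.3 and 28.01, *Agrn* 31.0 and 26.1, and *Nid2* 19.9 and 26.2 FPKM in NC. The NC ranges of *Hspg2* and *Agrn* overlapped, as did those of *Agrn* and *Nid2*. Within each NC library, however, *Hspg2* was above *Agrn*. *Fn1* was lowest, at 10.9 and 12.4 FPKM. The gene for the fibril-forming adhesion protein thus had a lower level per length than each of the basement membrane components listed here.

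In the libraries labelled si*Airn*, the first 5 places of the order were the same as in NC. *Nid2* stood sixth by its mean, with 23.5 and 42.2 FPKM, but its libraries overlapped with those of *Hspg2* (31.9 and 26.9), which overlapped with *Agrn* (28.8 and 25.7). *Fn1* was again last at 15.2 and 22.5 FPKM. The ratio of *Sparc* to *Tnc* within a library, on the FPKM scale, was 6.63 and 5.90 in NC and 3.66 and 2.56 in si*Airn*. The ratio of *Thbs1* to *Fn1* ranged only from 13.2 to 14.4 over the 4 libraries, and that of *Hspg2* to *Agrn* only from 1.05 to 1.11.

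**Figure D1:**
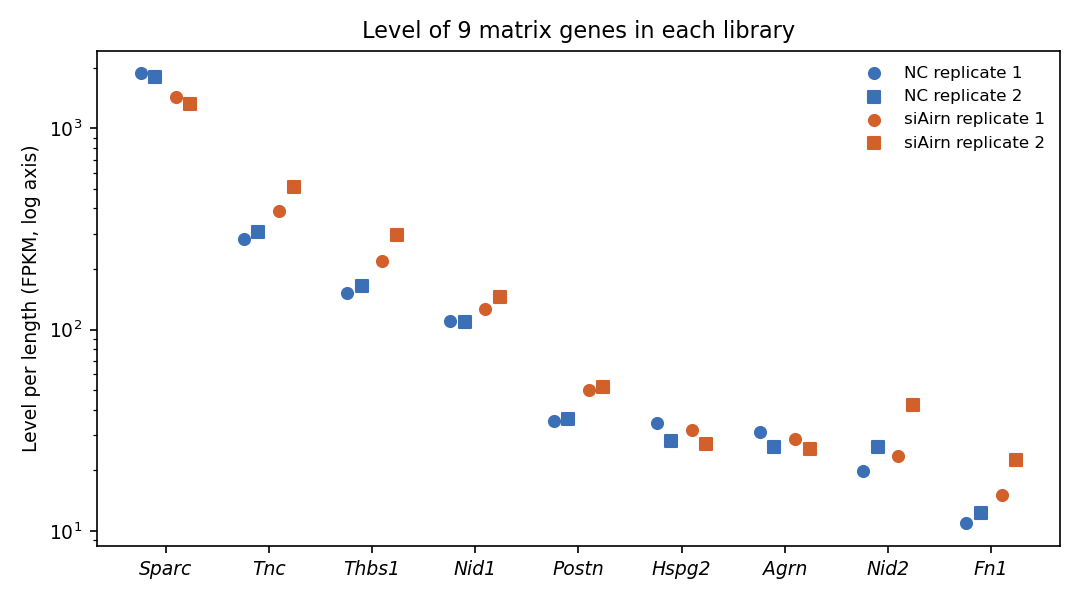
Level of each of the 9 genes in each library, as FPKM on a log axis, with circles for replicate 1 and squares for replicate 2 of NC (blue) and si*Airn* (orange). *Sparc* lies above 1300 FPKM in every library and above all others, and its si*Airn* points lie below its NC points, whereas the si*Airn* points of *Tnc*, *Thbs1*, *Nid1*, *Postn* and *Fn1* lie above theirs.

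Between the groups, 4 of the 9 genes rose in the libraries labelled si*Airn* (*Fn1*, *Tnc*, *Thbs1* and *Postn*), 1 fell (*Sparc*) and 4 had an adjusted p of 0.05 or more (*Nid1*, *Nid2*, *Hspg2* and *Agrn*). The call rests on the quasi-likelihood test of edgeR over all 13628 genes, at a Benjamini-Hochberg adjusted p below 0.05. Of those, 8.27% were called higher and 8.56% lower, against 4 of 9 and 1 of 9 here. After correction for GC content and length, the number called fell from 2294 to 1029 over all genes and from 5 to 1 here. *Sparc* kept its call, while *Thbs1* had a log2 fold change of 0.55, *Fn1* 0.52, *Tnc* 0.49 and *Postn* 0.22 with no call. The median log2 fold change was 0.47 over the 9 genes and 0.00 over all genes tested, and 0.22 over the 9 genes after correction. By the threshold in the study's methods, a fold change over 1.4 with an unadjusted p under 0.05, 3 of the 9 genes were higher (*Fn1*, *Tnc* and *Thbs1*) and none lower, where 5.25% and 4.72% of all genes tested were. *Postn* had a fold change of 1.397 and so missed the fold limit. The groups did not overlap for 6 of the 9 genes, the 5 called genes and *Nid1*, a share close to the 62.7% of all genes tested whose groups did not overlap.

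**Figure D2:**
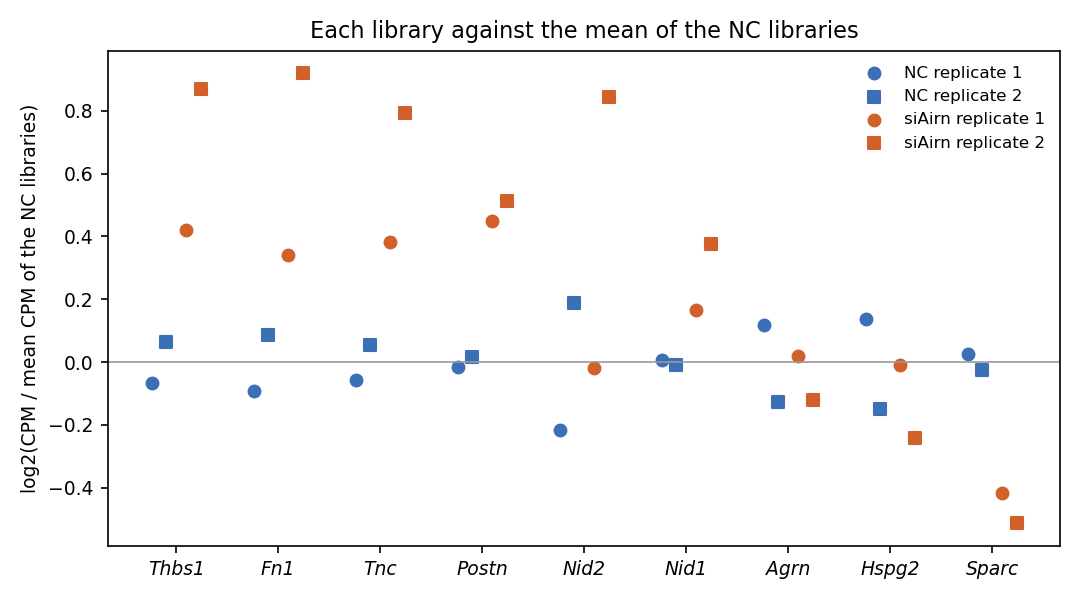
Each library's CPM relative to the mean of the NC libraries, on a log2 scale, for the 9 genes (circles replicate 1, squares replicate 2). For *Thbs1*, *Fn1*, *Tnc* and *Nid2*, si*Airn* replicate 2 lies well above si*Airn* replicate 1, while for *Postn* and *Sparc* the si*Airn* libraries lie close together.

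*Nid1* (gene identifier 18073) encodes nidogen 1, the laminin and collagen IV linker. It had 664 and 657 CPM in NC and 741 and 856 CPM in si*Airn*. Both si*Airn* libraries were above both NC libraries, and the gap between the si*Airn* libraries (0.21 on the log2 scale) was larger than that between the NC libraries (-0.02). The means were 660.1 ± 4.97 and 799 ± 81.7 CPM (SD, n = 2), a log2 fold change of 0.27 (SE 0.08, 95% interval 0.09 to 0.46) with an adjusted p of 0.0578 by edgeR's quasi-likelihood test. Without si*Airn* replicate 2 it was 0.17 (adjusted p 0.235), and without si*Airn* replicate 1 it was 0.37 and called (adjusted p 0.0100). In the fits without a library of either group, the lone library is assumed to vary like the pair of the other group, and the NC libraries of *Nid1* lay close together. With the replicate numbers fitted as a block, *Nid1* was called, at 0.27.

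*Nid2* (18074), the second nidogen, varied most between replicates. Its libraries had 95.7 and 127 CPM in NC and 109.8 and 199.6 CPM in si*Airn*. The groups overlapped, as si*Airn* replicate 1 lay between the NC libraries and only si*Airn* replicate 2 stood above them. The gap between the si*Airn* libraries was 0.86 on the log2 scale, and 3.72% of all genes tested had a gap as large. With means of 111 ± 22 and 155 ± 63.5 CPM (SD, n = 2), the log2 fold change was 0.47 (SE 0.26, interval -0.15 to 1.10, adjusted p 0.251 by edgeR's quasi-likelihood test), and without si*Airn* replicate 2 it was -0.021. It was 0.84 and called without si*Airn* replicate 1 (adjusted p 0.00136), and 0.28 and 0.69 with no call when NC replicate 1 or NC replicate 2 was left out. With the replicate numbers fitted as a block, *Nid2* was called, at 0.44. The level of *Nid1* was above that of *Nid2* in each library, by ratios of FPKM from 3.45 to 5.58.

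*Hspg2* (15530) encodes perlecan, the major heparan sulfate proteoglycan of vascular basement membranes. It had 489 and 401 CPM in NC and 442 and 376 CPM in si*Airn*, so the groups overlapped and replicate 1 was the higher in each. The means were 445 ± 62 and 409 ± 46 CPM (SD, n = 2), with a log2 fold change of -0.12 (SE 0.11, interval -0.39 to 0.15) and an adjusted p of 0.495 by edgeR's quasi-likelihood test. *Agrn* (11603) encodes agrin, a proteoglycan that also carries heparan sulfate and binds dystroglycan. It had 209 and 176 CPM in NC and 195 and 177 CPM in si*Airn*, again with the groups overlapping and replicate 1 higher in each. The log2 fold change was -0.05 (SE 0.10, interval -0.27 to 0.18, adjusted p 0.756 by edgeR's quasi-likelihood test). As fold changes, the intervals ran from 0.763 to 1.11 for *Hspg2* and from 0.826 to 1.13 for *Agrn*. Leaving out NC replicate 1 turned the sign of both, to 0.026 for *Hspg2* and 0.075 for *Agrn*. Without si*Airn* replicate 2, the value of *Agrn* was 0.019.

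*Sparc* (20692) encodes SPARC, also called osteonectin, a collagen-binding protein that affects how collagen is laid down. It had 4266 and 4117 CPM in NC and 3141 and 2938 CPM in si*Airn*. Both si*Airn* libraries were lower than both NC libraries, and the distance between the groups was larger than the gap within either. *Sparc* fell from 4191 ± 105 to 3039 ± 143 CPM (SD, n = 2), a log2 fold change of -0.46 (SE 0.06, interval -0.61 to -0.32), or 0.725 of the NC level, with an adjusted p of 0.00805 by edgeR's quasi-likelihood test. It made up 49.3% and 47.6% of the counts of the 9 genes in NC and 36.3% and 29.7% in si*Airn*, while *Tnc* made up 21.5% and 23.2% in NC and 29.1% and 33.7% in si*Airn*. *Sparc* ranked 20th by mean FPKM in NC and 36th in si*Airn*. Leaving out each library in turn gave log2 fold changes from -0.51 to -0.42, but without NC replicate 1 or NC replicate 2 the adjusted p was 0.0688 and 0.0849. These fits called 40 and 0 of all genes at an adjusted p under 0.05, with 3506 and 3106 genes at an unadjusted p under 0.05.

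*Fn1* (14268) encodes fibronectin, the ligand of integrins that contain the α5, αv or α4 chain. It had 87.8 and 99.2 CPM in NC and 118 and 177 CPM in si*Airn*. The groups did not overlap, but si*Airn* replicate 2 stood well above si*Airn* replicate 1, by 0.58 on the log2 scale, a gap that 8.03% of all genes tested reached. *Fn1* rose from 93.5 ± 8.06 to 148 ± 41.3 CPM (SD, n = 2), a log2 fold change of 0.66 (SE 0.17, interval 0.25 to 1.07) with an adjusted p of 0.0450 by edgeR's quasi-likelihood test, close to the limit. Without si*Airn* replicate 2 the log2 fold change was 0.34 (adjusted p 0.0503), and without NC replicate 1 or NC replicate 2 it was 0.57 and 0.75 (adjusted p 0.225 and 0.174). It was 0.92 and called without si*Airn* replicate 1 (adjusted p 0.000185). DESeq2's Wald test, upper-quartile normalization, no filter on low counts and limma on log2 FPKM did not call it. The log2 fold change of *Fn1* in those fits was 0.62 to 0.66. Plasma and cellular forms of fibronectin differ by splicing, which counts per gene do not separate.

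*Tnc* (21923) encodes tenascin C, a large adhesion-modulating glycoprotein induced in injured and remodelling tissue. It had 1857 and 2004 CPM in NC and 2516 and 3342 CPM in si*Airn*, and both si*Airn* libraries were above both NC libraries. *Tnc* rose from 1930.4 ± 104 to 2929 ± 584 CPM (SD, n = 2), a log2 fold change of 0.60 (SE 0.13, interval 0.30 to 0.90) and a fold change of 1.52, with an adjusted p of 0.0238 by edgeR's quasi-likelihood test. It was the second highest of the 9 genes per length, ranking 286th by mean FPKM among all genes in NC and 163rd in si*Airn*. Without si*Airn* replicate 2 the log2 fold change was 0.38 (adjusted p 0.0149). Without NC replicate 1 or NC replicate 2 it was 0.54 and 0.66, and the adjusted p was 0.143 and 0.134. It was 0.79 and called without si*Airn* replicate 1 (adjusted p 0.000151).

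*Thbs1* (21825) encodes thrombospondin 1, which binds CD36 and CD47, inhibits angiogenesis and activates latent TGF-β. It had 879 and 961 CPM in NC and 1231 and 1681 CPM in si*Airn*. As with *Tnc* and *Fn1*, the groups did not overlap and si*Airn* replicate 2 was the highest library. *Thbs1* rose from 920.2 ± 58.3 to 1456 ± 319 CPM (SD, n = 2), a log2 fold change of 0.66 (SE 0.14, interval 0.34 to 0.99) and a fold change of 1.58, with an adjusted p of 0.0234 by edgeR's quasi-likelihood test. Its gap between si*Airn* libraries was 0.45 on the log2 scale, and that of *Tnc* was 0.41. Of all genes tested, 11.9% and 13.7% had gaps as large. Without si*Airn* replicate 2 the log2 fold change of *Thbs1* was 0.42 (adjusted p 0.0121), and without NC replicate 1 or NC replicate 2 it was 0.60 and 0.73 (adjusted p 0.143 and 0.133). It was 0.87 and called without si*Airn* replicate 1 (adjusted p 0.00012).

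*Postn* (50706) encodes periostin, which binds collagen and tenascin C and promotes the cross-linking of collagen. It had 107 and 109 CPM in NC and 147 and 154 CPM in si*Airn*. The libraries of each group lay close together and the groups were well apart, unlike *Fn1*, whose level in CPM was similar. *Postn* rose from 108 ± 1.57 to 151 ± 4.72 CPM (SD, n = 2), a log2 fold change of 0.48 (SE 0.06, interval 0.33 to 0.63), with an adjusted p of 0.00793 by edgeR's quasi-likelihood test. Leaving out each library in turn gave values from 0.45 to 0.51, and the adjusted p was 0.0747 and 0.0964 without NC replicate 1 and NC replicate 2. The correction for GC content and length moved *Postn* to 0.22 (adjusted p 0.0807). *Tnc* exceeded its binding partner *Postn* in each library, by ratios of FPKM from 7.75 to 9.89.

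The fold changes of all genes in these libraries moved with the GC content and length of their transcripts, which bears on several of these values. Over 12948 genes with an annotated transcript in GENCODE M21 (95.01% of those tested, all 9 genes included), the Spearman correlation of the log2 fold change was -0.33 with GC content and 0.36 with length, given here as a description across genes that share the same 4 libraries. The median log2 fold change was 0.18 in the decile of genes with the lowest GC content and -0.15 in the decile with the highest. It was -0.18 in the decile with the shortest transcripts and 0.23 in the decile with the longest. *Postn*, with 36.3% GC, lies in the lowest decile by GC content. *Hspg2*, *Agrn*, *Fn1* and *Tnc* lie in the longest decile, with transcripts of 14187, 8612, 8315 and 7106 bases, and *Hspg2* also in the decile with the highest GC content (60.9%). *Sparc* is the shortest of the 9, at 2300 bases.

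After each library was corrected for GC content and length, only the fall of *Sparc* kept an adjusted p under 0.05 in edgeR's quasi-likelihood test (log2 fold change -0.36, SE 0.06, adjusted p 0.0260). *Thbs1* had 0.55 (SE 0.13, adjusted p 0.0546), *Tnc* 0.49 (SE 0.12, adjusted p 0.0563) and *Fn1* 0.52 (SE 0.17, adjusted p 0.105). These 3 estimates lost between 0.11 and 0.13 on the log2 scale. *Postn* lost most, from 0.48 to 0.22 (SE 0.07, adjusted p 0.0807). *Nid1* went from 0.27 to 0.16, *Hspg2* from -0.12 to -0.26 and *Agrn* from -0.05 to -0.15, and *Nid2* had 0.48 (adjusted p from 0.147 to 0.294 for these 4). Over all genes, the number called went from 2294 of 13628 to 1029 of 12948. Whether the trend with GC content and length arose in the cells or in making the libraries was not tested.

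**Figure D3:**
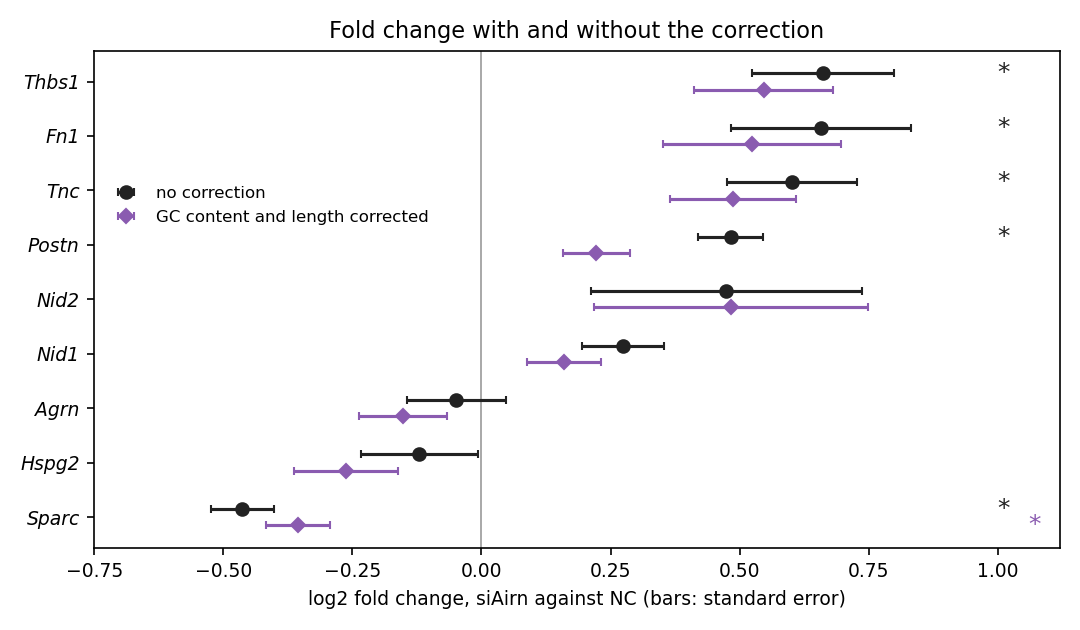
Log2 fold change of each of the 9 genes, si*Airn* against NC, without correction (black circles) and with the correction for GC content and length (purple diamonds), with standard errors as bars and an asterisk of the same colour at an adjusted p under 0.05. The estimates of *Thbs1*, *Fn1* and *Tnc* each fall by less than their standard error and lose their asterisk, that of *Postn* falls from 0.48 to 0.22, and *Sparc* is the only gene with an asterisk for both.

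The receptors of these proteins were described by a list of 13 genes, of which 12 were tested, 2 rose and 1 fell, with a median log2 fold change of 0.01. Of all genes tested, 8.27% rose and 8.56% fell, so 2 and 1 of 12 is not read as a result about the receptors. *Itgav*, the αv integrin chain that binds fibronectin, periostin and tenascin C, had 108 and 122 CPM in NC and 156 and 191 CPM in si*Airn*. It rose by a log2 fold change of 0.60 (SE 0.11, adjusted p 0.0168 by edgeR's quasi-likelihood test). *Itga4*, a chain of another fibronectin receptor, had 32.2 and 36.2 CPM in NC and 48.3 and 63.3 CPM in si*Airn*, with a log2 fold change of 0.70 (SE 0.14, adjusted p 0.0191 by the same edgeR test). After correction for GC content and length, *Itgav* had 0.35 (adjusted p 0.0870) and *Itga4* 0.38 (adjusted p 0.131), so neither call held. *Cd47*, a receptor of thrombospondin 1, had 268 and 275 CPM in NC and 227 and 229 CPM in si*Airn*. It fell by 0.25 on the log2 scale (SE 0.06, adjusted p 0.0309 by edgeR's quasi-likelihood test), with the groups apart in CPM but not in the deposited FPKM (85.9 and 94.6 in NC, 84.0 and 89.6 in si*Airn*). After correction, *Cd47* was still called, at -0.43 (adjusted p 0.0117). *Itgb1*, the shared β1 chain and the receptor gene with the highest level per length, had 1308 and 1228 CPM in NC and 1316 and 1340.4 CPM in si*Airn* (log2 fold change 0.07, adjusted p 0.474).

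The other matrix genes were described by 5 lists with 111 genes in all, of which 78 were tested, 8 rose (10.3%), 6 fell (7.69%) and 64 had an adjusted p of 0.05 or more. These shares lie near the 8.27% and 8.56% over all genes tested, and the median log2 fold change of the 78 was 0.13. With the correction for GC content and length, 3 rose and 4 fell. Except for *Ctgf*, *Bgn* and *Gpc4*, the genes of these 5 lists named here passed the test and did not overlap between groups.

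Of the 31 other basement membrane and elastic-fibre glycoproteins, 22 were tested, 3 rose and 2 fell. The microfibril gene *Fbn1* rose from 68.0 and 69.5 CPM in NC to 101 and 133 CPM in si*Airn* (log2 fold change 0.77, SE 0.12, adjusted p 0.0125 by edgeR's quasi-likelihood test). *Ltbp1*, which tethers latent TGF-β to microfibrils, rose by 0.84 (adjusted p 0.0291) and *Hmcn1*, hemicentin 1, by 0.47 (adjusted p 0.0322), both from 11.2 CPM or less. *Ntn4*, a laminin-related netrin of basement membranes, fell from 85.6 and 86.8 CPM in NC to 51.7 and 42.7 CPM in si*Airn* (log2 fold change -0.87, SE 0.10, adjusted p 0.00574). *Tinagl1*, a basement membrane glycoprotein and the gene of this list with the highest level per length, had 1195 and 1059 CPM in NC and 911 and 770.3 CPM in si*Airn* (log2 fold change -0.42, adjusted p 0.0298). *Fbn1* and *Ntn4* kept their calls after correction. The other 3 did not, with corrected values of 0.74 for *Ltbp1* (adjusted p 0.0599), 0.16 for *Hmcn1* and -0.24 for *Tinagl1*.

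Of 20 other matricellular and adhesive glycoproteins, 14 were tested, 1 rose and 1 fell. *Wisp1*, a CCN family member, rose from 6.54 and 7.68 CPM in NC to 13.6 and 11.3 CPM in si*Airn* (log2 fold change 0.81, SE 0.16, adjusted p 0.0202 by edgeR's quasi-likelihood test, and 0.67 with an adjusted p of 0.0515 after correction). *Igfbp7*, a secreted protein abundant around vessels, fell from 1371 and 1568 CPM in NC to 880.2 and 945 CPM in si*Airn* (log2 fold change -0.69, SE 0.08, adjusted p 0.00667, and -0.45 with an adjusted p of 0.0120 after correction). *Igfbp7* shares with *Sparc* a high level and a fall in both libraries labelled si*Airn*. *Ctgf*, the CCN gene with the highest level per length here, had 2445 and 2805 CPM in NC and 2444 and 3164 CPM in si*Airn* (log2 fold change 0.10, adjusted p 0.631), and its groups overlapped.

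Among proteoglycans, 10 of 23 secreted ones were tested, 2 rose and 1 fell. *Vcan*, the large chondroitin sulfate proteoglycan versican, rose from 7.18 and 6.96 CPM in NC to 14.2 and 16.1 CPM in si*Airn* (log2 fold change 1.10, SE 0.13, adjusted p 0.00683 by edgeR's quasi-likelihood test), and 0.77 after correction (adjusted p 0.0230). *Lum*, the collagen-binding lumican, rose by 0.43 (adjusted p 0.0379, and 0.38 with an adjusted p of 0.0645 after correction). *Srgn*, the granule proteoglycan serglycin, fell from 171 and 184 CPM in NC to 126 and 111 CPM in si*Airn* (log2 fold change -0.58, adjusted p 0.00962). *Bgn*, biglycan, was the highest of the list per length by its mean over all libraries, but not in si*Airn*. It had 512 and 572 CPM in NC and 399.7 and 465 CPM in si*Airn* (log2 fold change -0.33, adjusted p 0.0537).

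Of 12 cell surface proteoglycans, 10 were tested and 1 rose, the glypican *Gpc6*, from 2.57 and 2.93 CPM in NC to 5.03 and 5.43 CPM in si*Airn* (log2 fold change 0.93, SE 0.21, adjusted p 0.0282 by edgeR's quasi-likelihood test, and 0.84 with an adjusted p of 0.0515 after correction). *Gpc4*, the highest of that list per length by its mean over all libraries but not in NC, had a log2 fold change of 0.21 (adjusted p 0.263). Of 25 enzymes that build or edit heparan sulfate, the chain carried by perlecan and agrin, 22 were tested, 1 rose and 2 fell. *Hs6st1*, a 6-O-sulfotransferase, fell from 128 and 122 CPM in NC to 86.1 and 73.4 CPM in si*Airn* (log2 fold change -0.65, SE 0.09, adjusted p 0.00853), and kept its call after correction. *Ext2*, a subunit of the chain polymerase, fell by 0.29 on the log2 scale (adjusted p 0.0262), and *Glce*, the epimerase, rose by 0.40 (adjusted p 0.0246), neither of which was called after correction (-0.23 and 0.26).

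**Figure D4:**
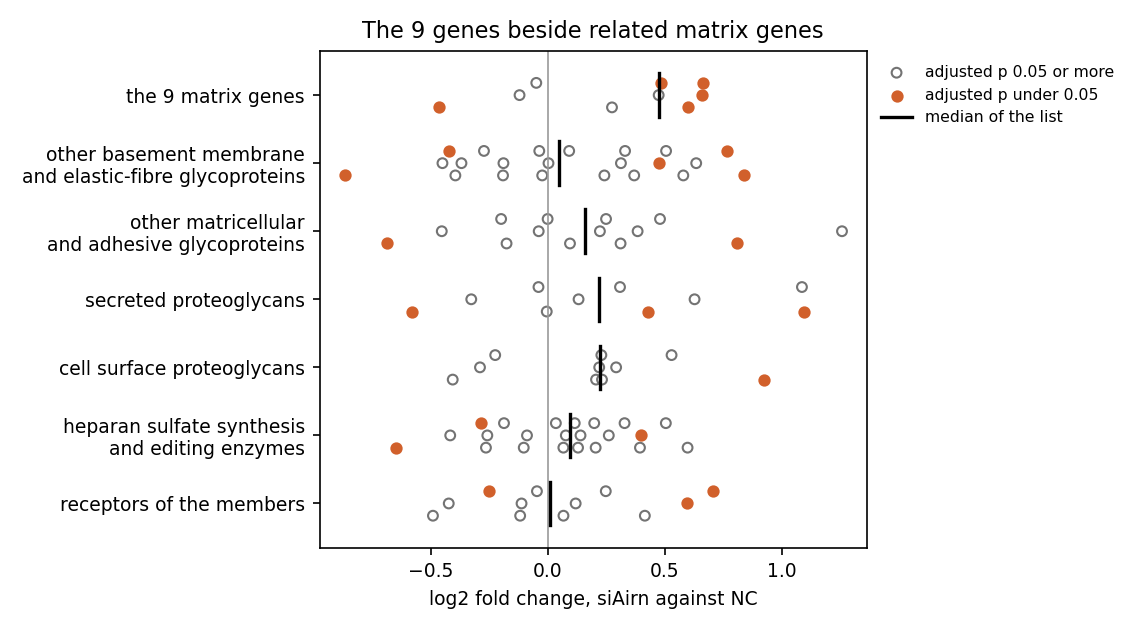
Log2 fold change of each tested gene, si*Airn* against NC, for the 9 matrix genes, the 5 related lists and the receptors, with filled points for an adjusted p under 0.05 and a bar at each list's median. The median is 0.47 for the 9 genes and between 0.01 and 0.22 for the lists. After correction for GC content and length, which the plot does not show, it is 0.22 for the 9 genes and between -0.03 and 0.27 for the lists.

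The libraries carried endothelial RNA, and the levels of endothelial and other markers differed between the groups. The 12 LSEC markers summed to 4783 and 4818 CPM in NC and 3480 and 3160.1 CPM in si*Airn*, with 10 of 12 lower (11 after correction for GC content and length) and none higher. The 10 pan-endothelial markers summed to 10353 and 9886 CPM in NC and 7282 and 6397 CPM in si*Airn*, with 8 of 10 lower (5 after correction). Of all genes tested, 8.56% were called lower. *Sparc* fell beside these lists. *Eng*, the pan-endothelial marker with most counts, had 2750 and 3025 CPM in NC and 1809 and 1821 CPM in si*Airn*. *Oit3* was the LSEC marker with the highest mean CPM over all libraries, but not in si*Airn*. It had 872 and 902 CPM in NC and 608 and 555 CPM in si*Airn*. In bulk libraries, fewer cells of a type and less RNA per cell cannot be told apart.

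Stellate cells, fibroblasts and smooth muscle also make matrix glycoproteins and proteoglycans. The 12 stellate cell and fibroblast markers summed to 599 and 680 CPM in NC and 691 and 939 CPM in si*Airn*. In this sum si*Airn* replicate 2 was highest, as it was in the sums of the smooth muscle and hepatocyte markers given below. It was also highest for *Fn1*, *Tnc*, *Thbs1*, *Nid1*, *Nid2* and, by a small gap of 0.06 on the log2 scale, *Postn*. For *Sparc*, *Hspg2* and *Agrn* it was not highest. Of the 12, 1 was called higher and none lower, with a median log2 fold change of 0.39. Of all genes tested, 8.27% were called higher, so 1 of 12 is not read as a result about these markers. *Col1a1*, the marker of this list with most counts, had 207 and 214 CPM in NC and 224 and 292 CPM in si*Airn*. The 6 smooth muscle markers summed to 943 and 1158 CPM in NC and 1060.5 and 1300.1 CPM in si*Airn*, with 1 called higher and a median of 0.44, and *Tagln* had 591 and 753 CPM in NC and 624 and 798 CPM in si*Airn*. After correction for GC content and length, 1 marker was called higher in each of these lists. The corrected medians were 0.43 for stellate cells and fibroblasts and 0.47 for smooth muscle. The part of these cells in the values of the 9 genes, the 4 that rose and *Sparc* alike, was not tested.

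Markers of the remaining cell types were as follows. The 10 hepatocyte markers summed to 639 and 806 CPM in NC and 896 and 1164 CPM in si*Airn*, with 2 called higher (1 after correction), and *Alb* had 497 and 638 CPM in NC and 705 and 900.2 CPM in si*Airn*. Hepatocytes make plasma fibronectin, and their part in the rise of *Fn1* was not tested. Macrophage and Kupffer cell markers summed to 243 and 310.2 CPM in NC and 186 and 156 CPM in si*Airn*, with 7 of 11 tested markers lower (2 after correction for GC content and length). Mesothelial markers summed to 10.6 to 15.3 CPM, cholangiocyte markers to 19.8 to 25.3 CPM and platelet markers to 14.2 to 18.5 CPM, and none of these was called (1 cholangiocyte marker was called higher after correction). Platelets store thrombospondin 1, and *Thbs1* alone had at least 879 CPM in each library, against at most 18.5 CPM for the summed platelet markers. The part of platelets in the level of *Thbs1* was not tested. *Lyz2* led the macrophage list at 119 and 131 CPM in NC and 93.8 and 74.96 CPM in si*Airn*, and *Gpm6a*, *Krt19* and *Pf4* led the last 3 lists with means of at most 19.4 CPM in either group. No marker was at 0 in all 4 libraries.

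The counts rest on genes whose place is known in GENCODE M21 (GRCm38), used for annotation only, since the deposited table gives no coordinates. *Nid1* spans chromosome 13 from 13437551 to 13512269 and *Nid2* chromosome 14 from 19751265 to 19811787, both on the plus strand. Of the exonic bases of *Nid2*, 8.45% lie under exons of *Rtraf* on the opposite strand, the largest such share of the 9. *Hspg2* spans chromosome 4 from 137468769 to 137570630 (plus strand), *Agrn* chromosome 4 from 156165290 to 156197488 (minus), *Sparc* chromosome 11 from 55394500 to 55423183 (minus) and *Postn* chromosome 3 from 54361109 to 54391037 (plus), with no exonic base under another gene's exon. *Fn1* spans chromosome 1 from 71585520 to 71653200 (minus), *Tnc* chromosome 4 from 63959785 to 64047015 (minus) and *Thbs1* chromosome 2 from 118111876 to 118127133 (plus), with 2.50%, 2.27% and 3.43% of exonic bases under exons on the opposite strand, against 2.06% for *Nid1*. Whether reads were counted by strand is not given in the sources used here, and how many counts came from these bases was not measured, so the counts of these 5 genes are uncertain to that extent.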

How the data were processed

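The 4 RNA-seq libraries of primary LSECs (2 NC, 2 si*Airn*) were grouped by the labels. Reads of 50 bases were sequenced from single ends. The submitters' processing notes name BWA, Bowtie2 and RSEM without versions and the build hg19, a human build, although the cells are from mice, so how the reads were assigned is not settled. The deposited table holds estimated counts (expected counts, not normalized, of which 76.5% to 76.8% are exactly whole, zeros included) and a second value per library, read as FPKM computed by the authors. The authors' group means were not used.

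Counts, which summed to between 17308382 and 18371959 per library, were rounded and compared in R 4.3.3 with edgeR 4.0.16 (TMM factors 0.985 to 1.02, filterByExpr defaults, quasi-likelihood test with no covariate, Benjamini-Hochberg adjustment over the 13628 genes tested). The common biological coefficient of variation was 0.0754. CPM values use the TMM factors, and 3 counts, the limit that a count of 0 allows, equal 0.166 to 0.175 CPM. Intervals from counts cover counting error only, since reads without molecular identifiers are not independent molecules. GC content and length were those of GENCODE M21 transcripts, corrected per library by natural splines with 5 degrees of freedom each.

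Alternatives were DESeq2 1.42.0, upper-quartile normalization, other filters, edgeR's likelihood-ratio test, limma 3.58.1 on log2(FPKM + 1) and log2(FPKM + 0.1) with a mean FPKM of at least 1 or no filter, a replicate block, the correction above, and leaving out each library. Correction for GC content alone or length alone was added after seeing the data. The fits were tested on simulated data.

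The 9 genes and all gene lists were chosen with earlier results of these data known. Named genes are the 9, *Airn*, up to 4 called genes without overlap and with the largest changes per pathway or receptor list, the gene of each such list with the highest mean FPKM, and, per marker list, the gene with the highest mean CPM. These means were taken over all libraries. Of the 111 pathway genes, 104 are in the table.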

Additional observations from a re-analysis of the deposited data

How the results depend on the processing

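The fall of *Sparc* was called under 12 of 13 alternatives that keep all libraries, *Postn* under 11, *Tnc* and *Thbs1* under 10 and *Fn1* under 5, each with the same sign. *Nid1* was called under 4, *Nid2* and *Hspg2* under 2 and *Agrn* under 1. With the correction for GC content and length, 1 of the 9 genes, 7 of the other matrix genes and 1029 of all genes were called, against 5, 14 and 2294 in the analysis reported. With limma on log2(FPKM + 1) and no filter on FPKM, these counts were 0, 0 and 0 at an adjusted p under 0.05, although 6 of the 9 genes and 4418 of all genes had an unadjusted p under 0.05 there. Correction for GC content alone, chosen after seeing the data, called the same 5 of the 9 genes, 9 of the other matrix genes and 1611 of all 12948 genes with an annotated transcript, and turned *Hspg2* to 0.033 and *Agrn* to 0.062. Correction for length alone, likewise chosen after seeing the data, called 3 of the 9 genes (*Hspg2*, *Sparc* and *Postn*) and 1571 of all genes, and had 1 of the 9 past the fold limit of 1.4. *Fn1*, *Tnc* and *Thbs1* were not called there, at log2 fold changes of 0.43, 0.41 and 0.52. The cause of these differences was not tested.

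Leaving out each library in turn, the number of the 9 genes called ranged from 0 to 7, the number past the fold limit from 0 to 6, the number of other matrix genes called from 0 to 25, and the number of all genes called from 0 to 2410. The 0 for the 9 genes came from leaving out NC replicate 1 or NC replicate 2, where 5 of the 9 genes had an unadjusted p under 0.05 in edgeR's quasi-likelihood test, and the 7 from leaving out si*Airn* replicate 1. Log2 fold changes ran from -0.26 to 0.026 for *Hspg2*, from -0.17 to 0.075 for *Agrn* and from -0.021 to 0.84 for *Nid2*. *Agrn* was 0.019 without si*Airn* replicate 2.

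Replicate numbers do not settle whether libraries are paired. Across all genes tested, the difference between replicates 1 and 2 in NC correlated at 0.27 with that in si*Airn*. This rests on 2 libraries per group. For each of the 9 genes but *Nid1*, replicate 2 differed from replicate 1 in the same direction in both groups. The share of all genes that did so was not counted, so this is not read as evidence of pairing. With the numbers as a replicate block, 7 of the 9 genes (*Nid1* and *Nid2* besides the 5), 35 other matrix genes and 4841 of all genes were called, and with the block and the correction together 9, 32 and 4107. Placed by CPM in place of FPKM, 5 of the 9 genes kept their position in the order of levels. With 2 libraries per group, the estimates of *Nid2*, *Fn1*, *Thbs1* and *Tnc* are limited by the spread between si*Airn* libraries more than by counts.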
